A study of Rattus norvegicus with 6 samples.

Results

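A set of 10 genes of the circadian clock was followed through the nuclei of the rat nucleus accumbens, a ventral striatal region that takes part in reward. The genes were taken by symbol: Per1, Per2, Per3, Cry1, Cry2, Clock, Dbp, Nr1d1, Nr1d2 and Nfil3. All 10 were present, each once, among the 25629 genes of the count tables.

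The clock is a feedback loop of transcription that runs in most cells over about a day. CLOCK, paired with BMAL1, activates genes through E-box elements, among them the Per and Cry genes, whose proteins return to block that activation. NR1D1 and NR1D2 (REV-ERB alpha and beta) repress Bmal1 and other targets through RORE elements, while DBP activates and NFIL3 represses genes at the D-box. Several Per genes, Per1 above all, also answer directly to glucocorticoid hormone and to neuronal activity, so in a tissue outside the central clock their RNA can move without a shift of phase.

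The tissue came from adult Sprague-Dawley rats of postnatal days 90 to 120, held on a light and dark cycle. Every rat of either group had self-administered heroin, for 7 days at 1 response per infusion, 4 days at 3 responses, a progressive ratio test on day 12 and 3 responses again on days 13 and 14, so no rat without heroin is in the comparison. After the last session the rats received saline or naloxone, an antagonist of opioid receptors, and were killed 1 h later. Punches from 12 rats, 6 male and 6 female, were pooled into 6 single-nucleus libraries, 3 per group (saline replicates 1 to 3, naloxone replicates 4 to 6), each holding male and female tissue. The hour of the day at which each rat was killed, and the rats behind each library, are not given in the sources used here, so a difference in clock time between libraries and an effect of the injection cannot be told apart.

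The libraries held between 55739350 and 76272798 UMIs (unique molecular identifiers, each a counted RNA molecule). After filters on detected genes and mitochondrial share and the removal of 2649 called doublets, 58960 nuclei of 64260 barcodes were used, and 463 barcodes occurred in more than 1 library. Of 42 clusters, 23 were named from marker lists and gave 17 classes, and 15 of these had at least 20 nuclei in every library and were tested. The summed markers of 13 of the 15 classes were highest in their own class. The list for Drd1-like spiny neurons was highest in endothelial-like nuclei through Ebf1, and it was also higher in Drd3-like GABA nuclei than in its own class. The list for Pthlh interneuron-like nuclei was highest in oligodendrocyte-like nuclei through Eya4. Naloxone replicate 5 stood apart in its median mitochondrial share, 0.556% against 0.152% to 0.340% in the other 5 libraries. Levels are given as CPM, a gene's UMIs per 1000000 UMIs of the same nuclei, with no correction for gene length, so levels are compared between classes and libraries and not between genes.

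Across classes, most clock genes were highest in astrocyte-like nuclei. The mean of Per2, Per3, Cry1, Cry2, Dbp, Nr1d1 and Nr1d2 was higher there than in any other class, while the mean of Clock was lowest there and Nfil3 was highest in oligodendrocyte-like nuclei. The order of classes was compared over the 6 libraries with an exact two-sided sign-flip permutation test between the first and the next class. It cannot give a p below 0.031, or below 0.0781 once adjusted over the 10 genes as the values fell. The classes were ranked on the same values, so the direction of each mean difference was fixed by the ranking. Its p-values are therefore a description.

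Per2, a repressor arm of the loop, reached 129, 131, 130.1, 115, 129 and 130.2 CPM in astrocyte-like nuclei of saline replicates 1 to 3 and naloxone replicates 4 to 6. Oligodendrocyte precursor-like nuclei came next at 82.5 CPM ± 11.5 (SD, n = 6), and astrocyte-like nuclei were higher in 6 of 6 libraries by 45.1 CPM (exact p = 0.031, adjusted p = 0.0781). The lowest 2 classes were oligodendrocyte-like nuclei (13.9 CPM ± 5.72) and committed precursor-like nuclei (7.41 CPM ± 8.49). Within the oligodendrocyte lineage only the oligodendrocyte precursor-like class thus stood far above the mature nuclei. Per3 averaged 519 CPM ± 71.1 in astrocyte-like nuclei and 418 CPM ± 42.2 in Drd3-like GABA neurons, a class of 1980 nuclei. Astrocyte-like nuclei were again higher in 6 of 6 libraries (difference 101 CPM, exact p = 0.031, adjusted p = 0.0781). With nuclei gated one by one from the markers in place of clusters, that difference was 207 CPM. The Drd3-like GABA class was in turn above the third, oligodendrocyte precursor-like nuclei at 264 CPM ± 49.4, in 6 of 6 libraries. A separate cluster of 2068 nuclei, with Drd3 among its leading genes, was left unnamed and is outside that class.

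Nr1d1 showed the largest ratio of first to second class apart from Nfil3. It averaged 39.0 CPM ± 5.46 in astrocyte-like nuclei (31.5 to 44.9 CPM over the 6 libraries) and 14.97 CPM ± 7.05 in endothelial-like nuclei, a 2.60-fold difference in the same direction in 6 of 6 libraries (exact p = 0.031, adjusted p = 0.0781). Endothelial-like levels rest on few UMIs: 17 for Nr1d1, 45 for Dbp, 80 for Cry2 and 80 for Nr1d2. That class also held 2308 CPM of general spiny neuron markers beside 5562 CPM of its own. The part of those markers in its levels was not tested. In cholinergic interneuron-like nuclei a single Nr1d1 UMI was counted over all libraries. Nr1d2 did not separate its leading classes: astrocyte-like nuclei averaged 73.5 CPM ± 6.56, Drd3-like GABA nuclei 71.2 CPM ± 9.79 and endothelial-like nuclei 69.2 CPM ± 26.4 (first against next, exact p = 0.406, adjusted p = 0.580). The difference between first and next was 2.24 CPM here and 22.6 CPM in marker-gated classes, where those of Dbp and Cry2 were 19.8 CPM and 18.8 CPM in place of 3.54 CPM and 6.42 CPM.

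The same 3 classes led for Dbp, the D-box activator whose RNA is a common marker of clock output: 46.2 CPM ± 7.36 in astrocyte-like, 42.6 CPM ± 23.1 in endothelial-like and 39.8 CPM ± 4.74 in Drd3-like GABA nuclei, with no separation between the first and the next (exact p = 0.719, adjusted p = 0.719). Drd3-like GABA nuclei were above the fourth class in 6 of 6 libraries. Cholinergic interneuron-like nuclei were again lowest, at 3.51 CPM ± 1.74. For Cry2 astrocyte-like nuclei (81.6 CPM ± 3.62) and endothelial-like nuclei (75.1 CPM ± 20.1) overlapped (exact p = 0.375, adjusted p = 0.580), and for Cry1 astrocyte-like nuclei (57.2 CPM ± 11.7) were above oligodendrocyte-like nuclei (42.2 CPM ± 8.19) in 5 of 6 libraries (exact p = 0.0625, adjusted p = 0.125).

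Clock, the activator, was the flattest of the 10 genes over classes. Its class means ran from 111 CPM ± 10.8 in astrocyte-like nuclei to 209.8 CPM ± 18.3 in Drd3-like GABA nuclei, a 1.90-fold range, whereas the other 9 genes ranged over 3.47-fold or more. Drd3-like GABA and Casz1-like spiny nuclei (207 CPM ± 12.4) did not differ at the top (exact p = 0.656, adjusted p = 0.719). Per1 was sparse: 1915 UMIs over all nuclei. Oligodendrocyte-like nuclei (11.4 CPM ± 0.875), astrocyte-like nuclei (10.1 CPM ± 3.56) and microglia-like nuclei (9.86 CPM ± 8.22) could not be ordered (first against next, exact p = 0.5, adjusted p = 0.625).

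Most neighbours in these orders did not differ beyond their spread. Of 14 neighbouring pairs of classes, the same class was higher in 6 of 6 libraries for 4 pairs in Per2 and Per3, for 2 in Dbp, for 1 in Cry2, Clock, Nr1d1 and Nfil3, and for 0 in Per1, Cry1 and Nr1d2.

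**Figure D1:**
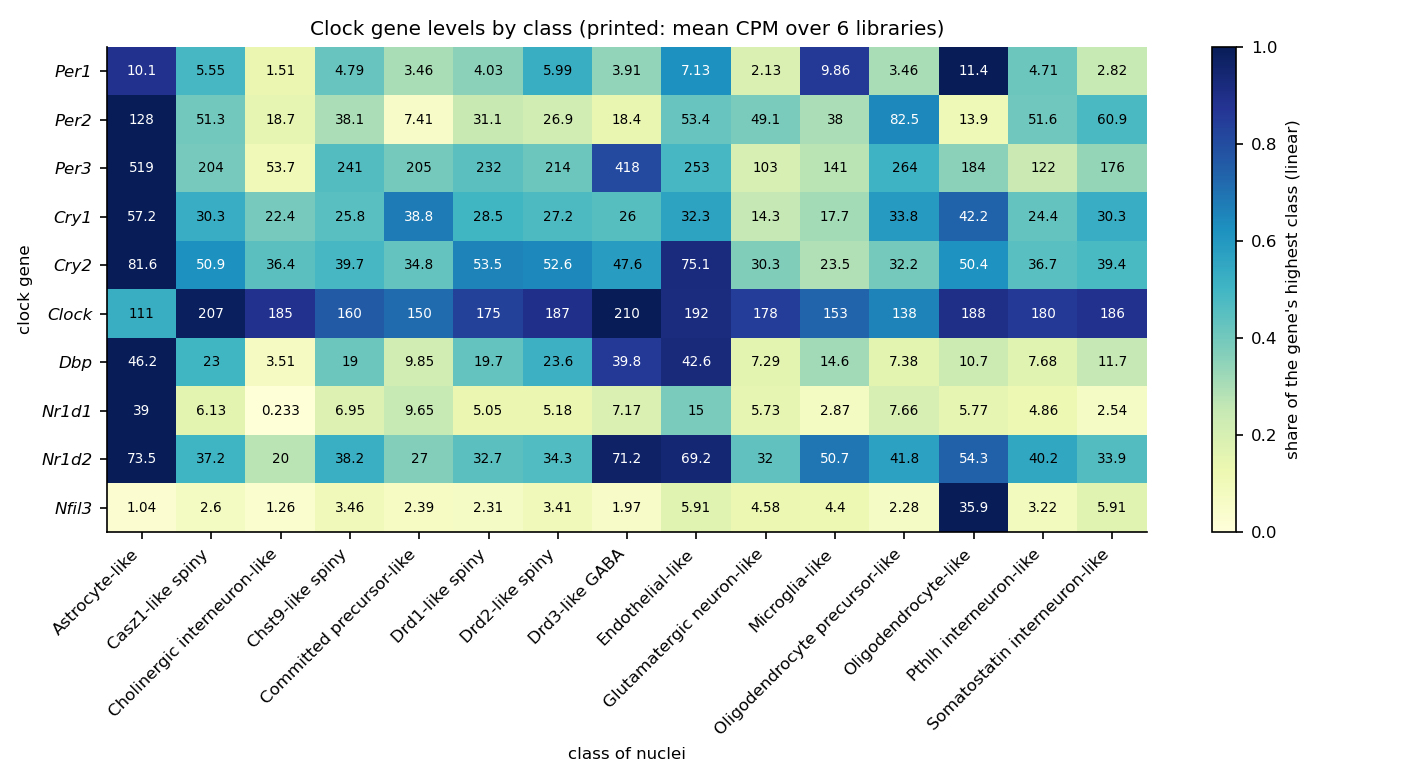
Mean level of each clock gene (rows) in 15 classes of nuclei (columns), printed as CPM over 6 libraries, with colour giving the share of that gene's highest class on a linear scale from 0 to 1. The astrocyte-like column is darkest for 7 genes and palest for Clock (111 CPM), and Nfil3 is dark only in oligodendrocyte-like nuclei (35.9 CPM, a mean over both groups).

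Over all nuclei, naloxone moved no clock gene past the threshold. UMIs summed per library were tested with edgeR's quasi-likelihood test, adjusted over all genes by the method of Benjamini and Hochberg and called at an adjusted p under 0.05; 0 of 10 clock genes were called, where 0.0404% of the 17342 genes tested were. Unadjusted p was under 0.05 for 5 of the 10 and for 14.1% of all genes, and DESeq2 called 2 of the 10, Nfil3 and Cry1, and 2.28% of all genes. The median log2 change of the 10, naloxone over saline, was -0.13, beside 0.01 over all genes tested. Here and by class, groups that lay apart or did not overlap are described by their values only. The share of all genes with such groups was not counted.

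Among the repressors, Per1 (ENSRNOG00000007387) stood at 4.69, 5.48 and 5.53 CPM after saline and 4.91, 4.04 and 5.51 CPM after naloxone. Per2 (ENSRNOG00000020254) read 34.9, 38.2 and 36.0 CPM against 33.6, 39.5 and 38.5 CPM. For Per3 (ENSRNOG00000018413) the values were 199.6, 217 and 215 CPM against 183, 252 and 186 CPM. The groups overlapped for all 3 Per genes, with log2 changes of -0.12 ± 0.14 (SE), 0.02 ± 0.08 and -0.04 ± 0.11.

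Cry1 (ENSRNOG00000006622) was lower in each naloxone library: 33.1, 29.2 and 30.4 CPM after saline and 23.9, 25.8 and 24.9 CPM after naloxone. The groups did not overlap, and the log2 change of -0.32 ± 0.08 missed the threshold (adjusted p = 0.166, edgeR). Cry2 (ENSRNOG00000007478) read 42.9, 46.0 and 44.3 CPM against 45.01, 60.7 and 46.4 CPM, with naloxone replicate 5 above the rest and the other 5 libraries within 42.9 to 46.4 CPM.

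Clock (ENSRNOG00000002175) also lay apart by group, at 188, 184 and 182 CPM after saline and 174, 167 and 168 CPM after naloxone (log2 change -0.13 ± 0.05, adjusted p = 0.334, edgeR). The D-box activator Dbp (ENSRNOG00000021027) read 19.3, 21.2 and 20.6 CPM against 16.7, 18.9 and 15.5 CPM. Its groups were close to touching and did not overlap (log2 change -0.27 ± 0.09, adjusted p = 0.246, edgeR). Nr1d1 (ENSRNOG00000009329) overlapped, at 6.33, 7.02 and 7.58 CPM against 6.51, 5.56 and 6.63 CPM. Nr1d2 (ENSRNOG00000046912) did not, at 37.3, 40.9 and 41.9 CPM against 36.9, 35.9 and 35.1 CPM, with saline replicate 1 close above naloxone replicate 4 (log2 change -0.16 ± 0.06, adjusted p = 0.309, edgeR).

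Nfil3 (ENSRNOG00000011668), the D-box repressor, read 4.43, 3.38 and 3.69 CPM after saline and 6.11, 6.99 and 6.18 CPM after naloxone. All 3 naloxone libraries were above all 3 saline libraries, and the log2 change of 0.74 ± 0.13 was the largest of the 10 (adjusted p = 0.102, edgeR). A sum over all nuclei cannot tell fewer nuclei of a class from less RNA in each, so the classes were taken one by one.

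**Figure D2:**
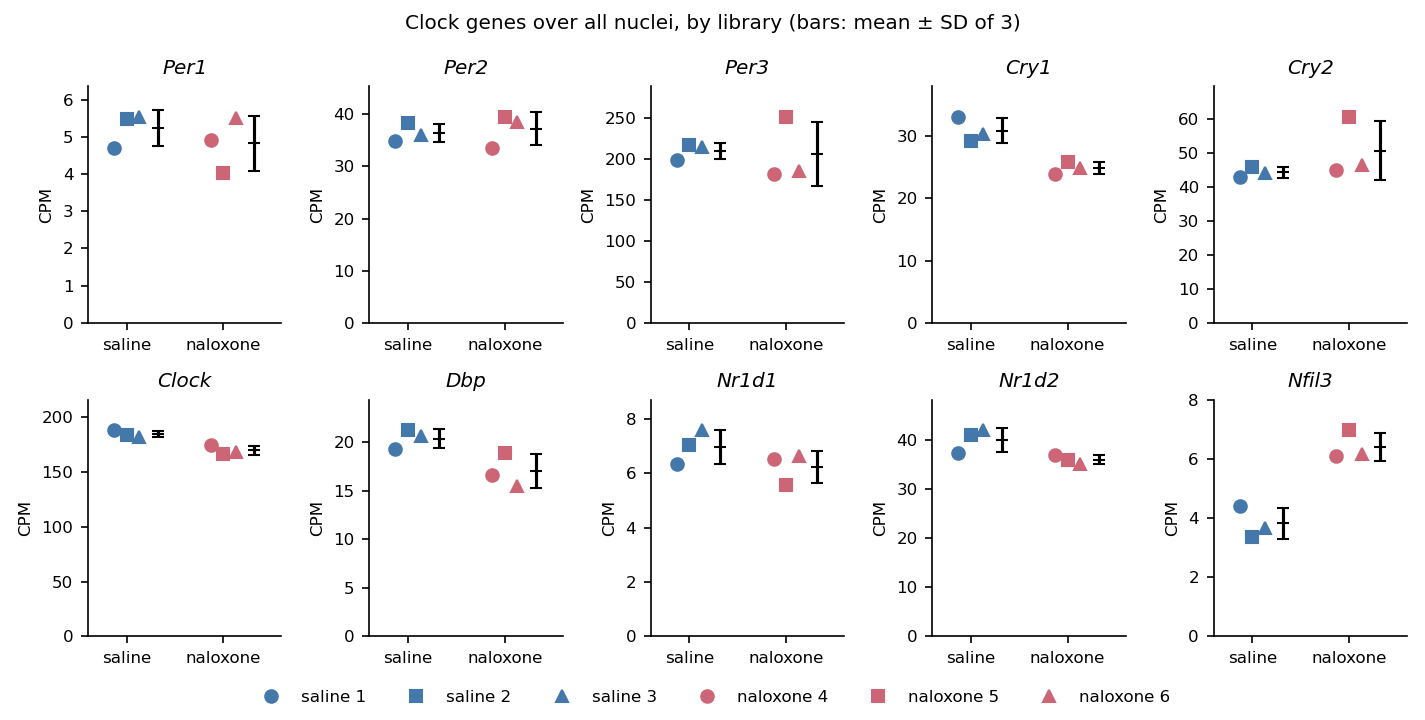
Level of each of the 10 clock genes over all nuclei (CPM, linear axes from 0) in the 3 saline libraries (blue) and the 3 naloxone libraries (red), with black bars for mean ± SD. Cry1, Clock, Dbp, Nr1d2 and Nfil3 have groups that do not overlap, Nfil3 alone with naloxone above. None was called by edgeR, and the share of all genes with groups apart was not counted. Naloxone replicate 5 stands above the rest for Per3 (252 CPM) and Cry2 (60.7 CPM).

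By class, Nfil3 rose about 4-fold in oligodendrocyte-like nuclei, the myelin-forming cells of the brain, and it was the only clock gene that edgeR called in any class. Saline replicates 1 to 3 held 43, 51 and 56 Nfil3 UMIs there, which were 17.01, 14.9 and 10.99 CPM. Naloxone replicates 4 to 6 held 194, 190 and 193 UMIs, which were 42.0, 77.1 and 53.3 CPM. The groups did not overlap: the lowest naloxone library was well above the highest saline library. The means were 14.3 CPM ± 3.06 and 57.4 CPM ± 17.9 (SD, n = 3 each), a 4.02-fold ratio, and the log2 change was 2.01 ± 0.22 (adjusted p = 0.00117, edgeR).

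This was 1 call among 108 tested pairs of clock gene and class, 0.926% of them, where 380 of 132782 pairs of any gene and class were called, 0.286%. In oligodendrocyte-like nuclei 1 of 10 clock genes was called beside 0.912% of 11403 genes. No pair was called by edgeR among the 6 to 10 clock genes that passed the filter in each of the other well-covered classes, where the share of all genes called was 0.863% in astrocyte-like, 0.598% in Drd2-like spiny, 0.216% in Drd1-like spiny, 0.197% in Chst9-like spiny, 0.0100% in Casz1-like spiny, 0.335% in oligodendrocyte precursor-like, 0.0544% in Pthlh interneuron-like and 0.0140% in somatostatin interneuron-like nuclei. It was 0.244% in microglia-like and 0.0204% in committed precursor-like nuclei, where 4 and 3 clock genes were tested, and 0% in Drd3-like GABA, cholinergic interneuron-like, endothelial-like and glutamatergic neuron-like nuclei. Over all classes 12 of the 108 pairs had an unadjusted p under 0.05, 11.1%, against 9.11% of all pairs of gene and class, and DESeq2 called 2 of the 108 pairs where it called 0.468% of all pairs. These 2 were Nfil3 in oligodendrocyte-like nuclei (1.54% of genes called there by DESeq2) and Cry1 in Drd1-like spiny neurons (0.633%).

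After saline alone the next class was somatostatin interneuron-like nuclei, at 9.18 CPM ± 4.99 from 5, 8 and 2 UMIs, beside 14.3 CPM ± 3.06 in oligodendrocyte-like nuclei. Over both groups the mean of Nfil3 in the other 14 classes lay between 1.04 CPM ± 1.01 in astrocyte-like and 5.91 CPM ± 7.16 in endothelial-like nuclei (the latter from 6 UMIs), and it passed the filter on low counts in only 3 other classes, all spiny neurons. The largest of those 3 changes was in Drd1-like spiny neurons, a log2 change of -0.28 ± 0.26 (adjusted p = 0.698, edgeR). The change in oligodendrocyte-like nuclei differed from that in Drd1-like spiny neurons by 2.32 ± 0.32 on the log2 scale (class by treatment term with library as block, adjusted p = 0.00116, edgeR).

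**Figure D3:**
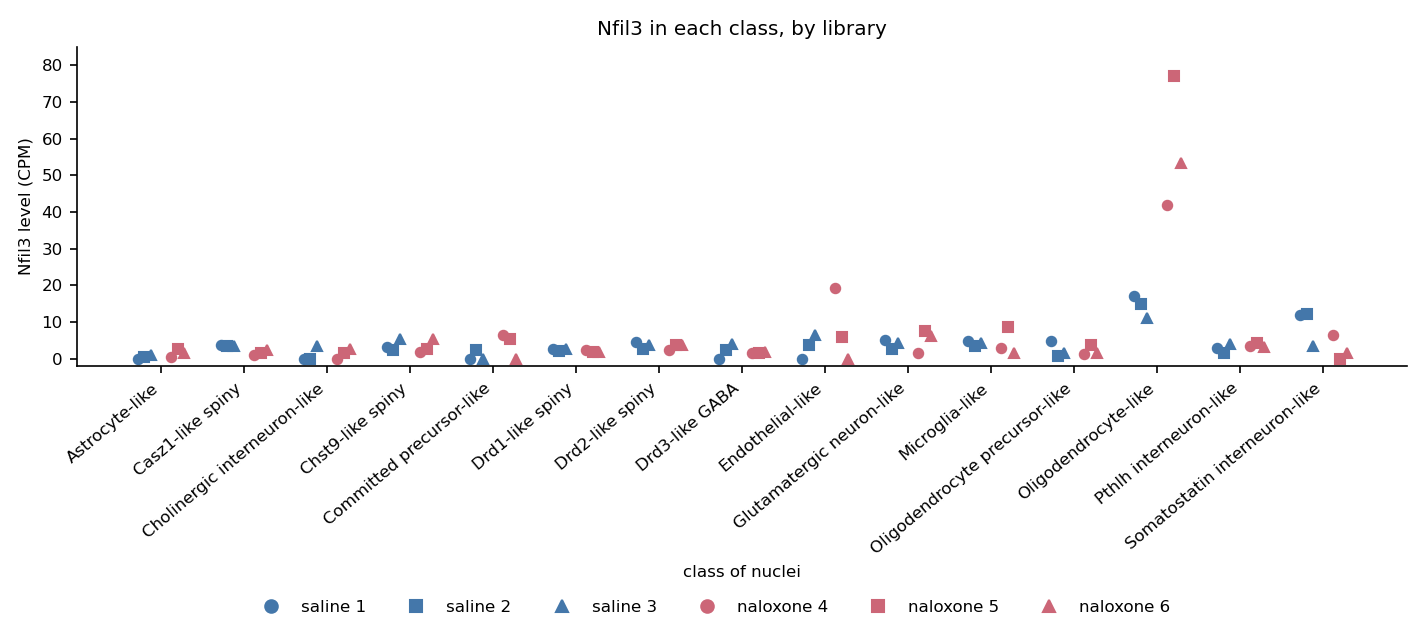
Nfil3 level (CPM, linear axis) in 15 classes of nuclei, 1 point per library, saline in blue and naloxone in red. In oligodendrocyte-like nuclei the naloxone libraries lie at 42.0 to 77.1 CPM and the saline libraries at 10.99 to 17.01 CPM, while no point of any other class is above 19.4 CPM.

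The share of nuclei with an Nfil3 UMI differed in the same direction as the level. Among oligodendrocyte-like nuclei 3.004%, 2.07% and 2.25% held one after saline and 6.604%, 9.82% and 10.4% after naloxone. Median depth differed between libraries (1314 to 2089.5 UMIs per nucleus), so each nucleus was thinned to 1000 UMIs, which left out between 7.47% and 28.1% of nuclei. The shares were then 1.94%, 1.40% and 0.956% after saline and 4.21%, 7.11% and 4.62% after naloxone, with exact (Clopper-Pearson) 95% intervals that reached at most 2.89% in the saline libraries and began at 3.41% or higher in the naloxone libraries. These intervals cover counting error only. Drd1-like spiny neurons, thinned likewise from medians of 7488 to 14984 UMIs, held an Nfil3 UMI in 0.358%, 0.276% and 0.378% of nuclei after saline and 0.140%, 0.260% and 0.160% after naloxone, where naloxone was the lower and the exact intervals of all 6 libraries overlapped.

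Oligodendrocyte-like nuclei made up 4 clusters, found without the clock genes, and 1 of them, cluster 17, was made almost only of naloxone nuclei: 25, 56 and 74 from the saline libraries and 1020, 1476 and 621 from the naloxone libraries. Its leading genes included Gpd1, Pdk4 and Arrdc2 beside the myelin gene Mog. After naloxone Nfil3 stood at 59.7, 82.6 and 84.7 CPM in that cluster, while its 3 saline libraries held 1, 2 and 2 UMIs. The other 3 clusters, with nuclei of all libraries, showed the difference as well. In cluster 16 the level was 14.0, 17.7 and 11.1 CPM after saline and 26.7, 86.4 and 27.4 CPM after naloxone, in cluster 18 it was 21.0, 13.7 and 10.3 CPM against 30.8, 40.3 and 30.7 CPM, and in cluster 32 it was 14.6, 11.1 and 11.4 CPM against 44.2, 45.2 and 45.5 CPM. Every naloxone library was above every saline library in each of the 4 clusters, although naloxone replicate 5 held only 8, 7 and 8 Nfil3 UMIs in clusters 16, 18 and 32. With cluster 17 left out, an alternative chosen after seeing the data, the log2 change was 1.30 (adjusted p = 0.0492, edgeR), from 16.9, 14.7 and 10.9 CPM against 31.0, 51.9 and 31.4 CPM.

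The rise was uneven within the pooled libraries. Nuclei were called female or male by their Xist and Y-linked UMIs, which placed 38.3% of oligodendrocyte-like nuclei. In naloxone replicate 4 the female nuclei held 67.9 CPM of Nfil3 (79 UMIs) and the male nuclei 19.5 CPM (21 UMIs). In naloxone replicate 6 it was the reverse, with 71.0 CPM in male nuclei (95 UMIs) and 7.75 CPM in female nuclei (4 UMIs). Naloxone replicate 5 was high in both, at 64.5 CPM in female and 97.1 CPM in male nuclei. The 6 saline values lay between 6.97 and 23.6 CPM, so 4 of the 6 naloxone values were far above them and 2, from 1 sex in each of 2 libraries, were within their range.

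Cluster 17 followed the same split. It held 68.6% of female and 6.70% of male oligodendrocyte-like nuclei of naloxone replicate 4, 3.64% of female and 73.3% of male nuclei of replicate 6, and 75.3% and 85.8% in replicate 5, against 0.323% to 7.46% in the saline libraries. Fkbp5, a glucocorticoid receptor target that encodes a chaperone of that receptor, split likewise: 179 CPM in female and 44.6 CPM in male nuclei of replicate 4, 40.7 CPM and 164 CPM in replicate 6, 220.1 CPM and 345 CPM in replicate 5, and 18.6 to 64.9 CPM after saline. In astrocyte-like nuclei, which held almost no Nfil3, Fkbp5 showed the pattern once more, with 117 and 19.8 CPM in replicate 4, 16.5 and 145 CPM in replicate 6, 193 and 345 CPM in replicate 5, and 6.95 to 44.8 CPM after saline. These splits were noticed in the data and carry no test; male and female nuclei of a library come from different rats, whose number per library is not given in the sources used here.

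**Figure D4:**
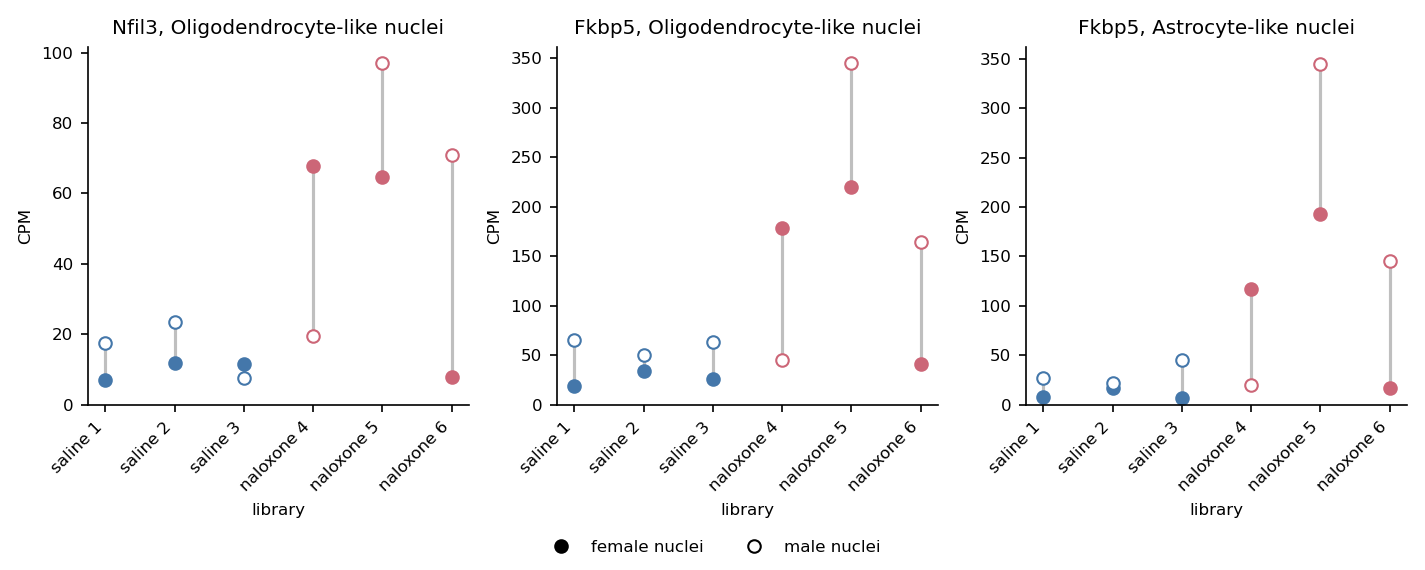
CPM (linear axes from 0) of Nfil3 in oligodendrocyte-like nuclei and of Fkbp5 in oligodendrocyte-like and astrocyte-like nuclei, by library, in female nuclei (filled) and male nuclei (open). Male nuclei of naloxone replicate 4 and female nuclei of naloxone replicate 6 lie within the range of the saline values of both sexes in all 3 panels.

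A list of 11 glucocorticoid-responsive genes was read beside Nfil3 in oligodendrocyte-like nuclei. The list was chosen with earlier results of these data known, so its counts are a description. All 9 that passed the filter rose: Fkbp5 (log2 change 1.97), Zbtb16 (1.34), Tsc22d3 (0.58), Sgk1 (1.58), Pdk4 (1.30), Cdkn1a (2.79), Klf9 (0.97), Ddit4 (1.77) and Errfi1 (1.53), with a median of 1.53 beside -0.0015 over all genes tested. Sgk1, a kinase, read 79.5, 71.9 and 57.9 CPM after saline and 146, 245 and 236 CPM after naloxone, with no overlap. Over the 15 classes 20 of 80 tested pairs of such a gene and class were called, all higher, 5 of them in astrocyte-like nuclei. Of 13 genes listed as induced by neuronal activity, 11 were present, and 2 of 36 tested pairs were called, Homer1 and Egr4 in Drd2-like spiny neurons, both higher. Beside both counts, 0.286% of all pairs of gene and class were called. The share of genes called was 0.912% in oligodendrocyte-like, 0.863% in astrocyte-like and 0.598% in Drd2-like spiny nuclei. The part of either list in the change of Nfil3 was not tested, and Per1, itself a glucocorticoid target, stood at a log2 change of 0.04 ± 0.20 in oligodendrocyte-like nuclei.

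Markers of other cells were also read in oligodendrocyte-like nuclei, as summed CPM of each list. The own list (7 of 7 markers) lay at 13755 to 14953 CPM after saline and 15026 to 15566 CPM after naloxone. Lists of committed precursors (2359 to 2387 CPM against 2510.3 to 2709 CPM), oligodendrocyte precursors (50.8 to 52.8 CPM against 58.4 to 71.7 CPM) and somatostatin interneurons (17.2 to 19.2 CPM against 30.4 to 35.5 CPM) were also higher in every naloxone library, and 0 markers of any list were called by edgeR. The lists of microglia (28.5 to 45.9 against 38.4 to 62.9 CPM) and endothelial cells (5.14 to 9.93 against 8.55 to 16.2 CPM) overlapped, and the mural list had 5 of 5 markers under 1 CPM. Their part in the result was not tested.

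Promoter sequence was looked up for Nfil3, which moved, and for 2 members whose windows hold the letters of a clock element, to show what DBP, NFIL3 and CLOCK are known to bind. RefSeq windows of build GRCr8, 250 bases before to 50 bases after a start site, were found for 9 of the 10 genes (11 windows), all but Cry1. They are written 5′ to 3′ on the gene's strand, in lower case with the element in capitals. Nfil3 is chr17:12432126-12432425 on the plus strand. Per2 is chr9:99496944-99497243 on the minus strand. Nr1d1, from the first of 2 windows, is chr10:84229405-84229704 on the minus strand.
Nfil3: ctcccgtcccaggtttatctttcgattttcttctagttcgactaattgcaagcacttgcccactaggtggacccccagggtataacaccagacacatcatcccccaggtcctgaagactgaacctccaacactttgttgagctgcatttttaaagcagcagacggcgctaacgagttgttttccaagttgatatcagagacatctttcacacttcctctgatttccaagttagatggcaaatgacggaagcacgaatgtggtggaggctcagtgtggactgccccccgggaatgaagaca
Per2: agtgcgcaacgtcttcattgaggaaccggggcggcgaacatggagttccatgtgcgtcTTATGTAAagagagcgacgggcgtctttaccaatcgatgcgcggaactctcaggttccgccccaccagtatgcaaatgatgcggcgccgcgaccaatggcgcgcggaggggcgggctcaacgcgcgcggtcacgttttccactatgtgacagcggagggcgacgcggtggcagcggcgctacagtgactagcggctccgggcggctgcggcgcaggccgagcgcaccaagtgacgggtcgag
Nr1d1: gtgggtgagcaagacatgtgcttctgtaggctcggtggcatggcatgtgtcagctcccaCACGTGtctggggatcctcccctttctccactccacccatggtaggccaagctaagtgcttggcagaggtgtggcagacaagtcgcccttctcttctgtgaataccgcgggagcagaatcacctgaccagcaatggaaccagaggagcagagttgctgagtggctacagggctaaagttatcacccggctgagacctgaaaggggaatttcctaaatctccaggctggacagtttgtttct

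Both strands were searched for the E-box CACGTG, the D-box TTANGTAA, the RORE core TNGGTCA and the cAMP response element TGACGTCA. Of the 11 windows 2 held a match: Per2 a D-box, TTATGTAA, beginning 192 bases before the start site, and Nr1d1 an E-box beginning 191 bases before it. Among all 33469 windows in the table the share with a match was 6.42% for the E-box, 2.24% for the D-box, 11.1% for the RORE core and 1.83% for the cAMP response element. A match is a run of letters and no evidence of binding, and the Nfil3 window held none of the 4 strings.

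Per2 was the second gene whose response to naloxone differed between classes. In Drd2-like spiny neurons, the projection neurons of the indirect pathway, it read 26.2, 26.3 and 21.1 CPM after saline and 25.4, 34.5 and 28.1 CPM after naloxone. In Drd1-like spiny neurons, those of the direct pathway, it read 36.0, 34.2 and 31.0 CPM against 27.3, 27.8 and 30.5 CPM. The groups overlapped in the first class and lay apart in the second, with naloxone lower. Neither change was called by itself (log2 0.28 ± 0.13, adjusted p = 0.371, and -0.24 ± 0.10, adjusted p = 0.363, edgeR), and their difference was 0.53 ± 0.12 on the log2 scale (adjusted p = 0.0261, edgeR). In marker-gated classes the log2 changes were smaller, 0.14 in Drd2-like and -0.13 in Drd1-like neurons, and their difference was not tested there.

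Without naloxone replicate 5 that difference was 0.36 and no longer called (adjusted p = 0.274). Without saline replicate 1, 2 or 3 it stayed about as large, at 0.54, 0.58 and 0.49, and was not called either (adjusted p = 0.0778, 0.0905 and 0.176). In this contrast 1 of 10 clock genes was called and 1.07% of 13543 genes were. In the oligodendrocyte-like against Drd1-like contrast 1 of 10 was called, Nfil3, beside 0.417% of 13667 genes, and in the astrocyte-like against Drd1-like contrast 0 of 10 by edgeR (0 also at an unadjusted p under 0.05; no other tool was run), beside 0.227% of 13653 genes.

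Cry1 was lower after naloxone in Drd1-like spiny neurons, at 36.0, 33.4 and 31.1 CPM after saline (310, 377 and 315 UMIs) and 21.6, 24.4 and 24.8 CPM after naloxone (153, 248 and 247 UMIs). The groups lay apart, and the log2 change of -0.50 ± 0.10 missed the threshold with edgeR (adjusted p = 0.0730) and passed it with DESeq2 (adjusted p = 0.0292). In marker-gated classes the log2 change was -0.38 (adjusted p = 0.397, edgeR). The 2 Drd1-like clusters read 47.1, 38.5 and 50.5 against 30.6, 37.0 and 40.2 CPM in cluster 0, which overlapped, and 29.6, 30.9 and 24.6 against 16.8, 19.96 and 18.1 CPM in cluster 1, which did not. Casz1-like spiny neurons read 43.1, 35.4 and 33.3 CPM against 24.0, 24.0 and 21.8 CPM (log2 change -0.66 ± 0.17, adjusted p = 0.254, edgeR, and 0.999, DESeq2). In Drd2-like spiny neurons the log2 change was -0.06 ± 0.12 (adjusted p = 0.869, edgeR), and the Drd2-like against Drd1-like difference was 0.44 ± 0.12 (adjusted p = 0.0799, edgeR). Over the 12 classes in which Cry1 was tested the log2 change was below 0 in 10. These classes share their libraries, and the share of all genes with such signs was not counted.

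Per2 in microglia-like nuclei had the largest uncalled change. The counts were 1, 3 and 8 UMIs after saline and 20, 35 and 19 after naloxone, which were 4.97, 10.8 and 17.6 CPM and 61.4, 101 and 32.2 CPM. The naloxone libraries were higher in every case, by a log2 change of 2.28 ± 0.51 (adjusted p = 0.0891, edgeR). With nuclei gated one by one from the markers in place of clusters the log2 change was 0.30 (adjusted p = 0.881), and without naloxone replicate 6 it was 2.67 (adjusted p = 0.00296). Per3 in the same nuclei read 59.7, 151 and 77.0 CPM against 166, 269 and 124 CPM, which overlapped (log2 change 0.93 ± 0.30, adjusted p = 0.340, edgeR). The microglia-like nuclei of the naloxone libraries also held more of their own 7 markers, 5650.2 to 6289 CPM against 4798 to 5102 CPM. Without overlap they also held more of the 4 oligodendrocyte precursor markers (193 to 260.4 CPM against 140.0 to 164 CPM), the 4 somatostatin interneuron markers (35.6 to 52.1 CPM against 0 to 30.8 CPM) and the 5 mural markers (2.89 to 36.8 CPM against 0 CPM), and less of the 6 endothelial markers (175 to 206 CPM against 209 to 226 CPM). The part of these markers in the result was not tested.

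For the remaining genes no change was called in any class. Cry2 had log2 changes above 0 in 13 of 13 classes tested, from 0.03 to 0.48, the last in oligodendrocyte-like nuclei at 38.4, 47.0 and 39.9 CPM against 48.3, 68.2 and 60.4 CPM (adjusted p = 0.171, edgeR). Naloxone replicate 5 was the highest of the 6 libraries for Cry2 in 12 of 15 classes and for Per3 in 11 of 15, and the all-nuclei log2 change of Cry2 went from 0.18 to 0.04 without it. Clock had log2 changes below 0 in 12 of 15 classes, none beyond -0.45. Saline replicate 1 was its highest library in 9 of 15 classes. The classes come from the same 6 libraries, so counts of classes with the same sign are no repeated tests. The share of all genes with such signs was not counted.

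Dbp was lower after naloxone in Drd2-like spiny neurons, at 27.8, 25.2 and 28.0 CPM against 23.5, 20.8 and 16.5 CPM, groups that lay apart and a log2 change of -0.41 ± 0.13 that was not called (adjusted p = 0.183, edgeR). In astrocyte-like nuclei, where its level was highest, the log2 change was 0.26 ± 0.16 (adjusted p = 0.573, edgeR). Nr1d1 was tested in 7 classes, with log2 changes from -0.40 to 0.08. Nr1d2 was tested in 14, with log2 changes from -0.49 to 0.14. Per1 was tested in 6, with log2 changes from -0.61 to 0.16, the lowest in Chst9-like spiny neurons (adjusted p = 0.573, edgeR).

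**Figure D5:**
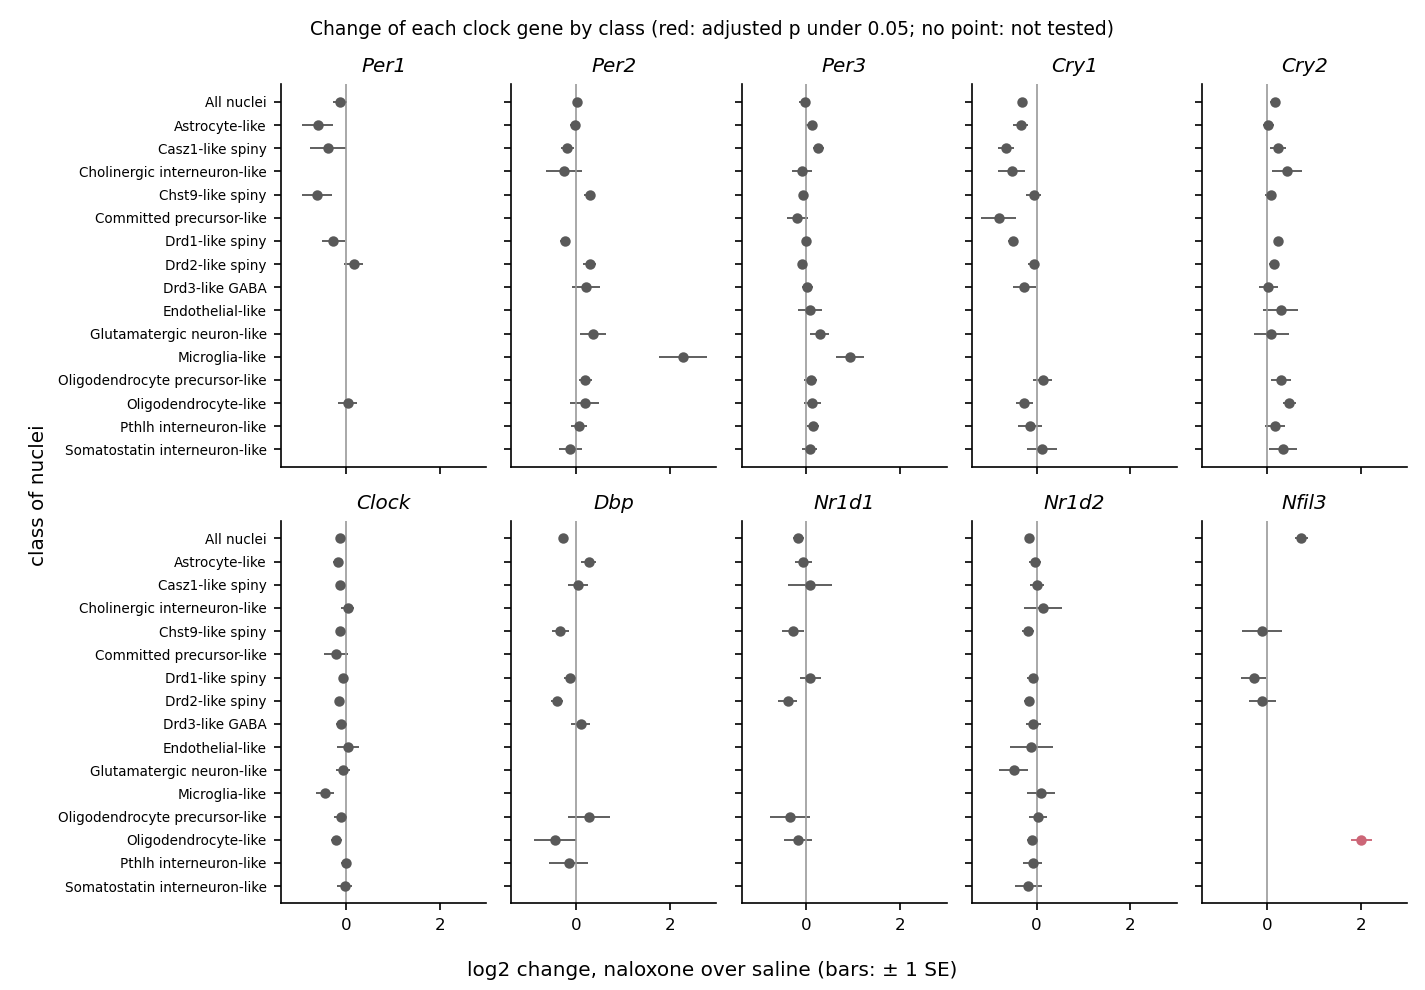
Log2 change of each clock gene, naloxone over saline, over all nuclei and in 15 classes, with bars of ± 1 SE. Points are shown where the gene passed the filter on low counts, and the only red point, with an adjusted p under 0.05, is Nfil3 in oligodendrocyte-like nuclei (2.01).

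The 19 further clock genes present in the tables included Bmal1, Npas2, the Ror genes, Tef, Bhlhe40, Bhlhe41, Ciart and the casein kinases. Among 186 tested pairs of such a gene and class, 1 rose and 1 fell, where 0.286% of all pairs were called. Hlf, a D-box activator related to Dbp, fell in astrocyte-like nuclei from 220.5, 175 and 192 CPM to 129.9, 126 and 142 CPM, with no overlap (log2 change -0.52 ± 0.11, adjusted p = 0.0412, edgeR). It was not called when any 1 library was left out, in marker-gated classes or in sums by sex (adjusted p up to 0.239), although the log2 change stayed between -0.43 and -0.60. In the same nuclei the 7 astrocyte markers were higher in every naloxone library (11484 to 11985 CPM against 10022 to 10489 CPM), and 2 of them were called. The lists of committed precursors (223 to 236 against 187 to 204 CPM), microglia (42.4 to 52.0 against 30.6 to 40.4 CPM), somatostatin interneurons (17.1 to 19.1 against 10.4 to 16.9 CPM) and glutamatergic neurons (5.53 to 9.83 against 2.60 to 4.53 CPM) were also higher without overlap. The part of these markers in the result was not tested. Tipin, which encodes the partner of TIMELESS at replication forks, rose in Drd2-like spiny neurons from 5.93, 5.66 and 7.22 CPM to 11.7, 16.7 and 13.1 CPM, with no overlap (log2 change 1.16 ± 0.18, adjusted p = 0.0123, edgeR). Without saline replicate 1 or 2 its adjusted p was 0.0674 or 0.0923. Over all nuclei 18 of the 19 were tested and 0 were called by edgeR, where 0.0404% of all genes were. The 18 had a median log2 change of 0.02.

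No clock gene was called between male and female nuclei in sums over all nuclei. Differences by sex within a class were not tested. Sex could be read for 64.5% of nuclei, and 0 of 10 genes were called in the 12 sums by library and sex, by edgeR or by DESeq2 and with 1 at an unadjusted p under 0.05, where 0.0491% of 16291 genes were. That 1 was Per1, with a log2 difference, male over female, of 0.22 ± 0.09 (adjusted p = 0.986, edgeR). Nfil3 showed the largest difference, male over female 0.42 ± 0.21 on the log2 scale (adjusted p = 0.986, edgeR). The sex by treatment term was called for 0 of 10 clock genes, with 0 at an unadjusted p under 0.05, and for 0% of genes by edgeR, the only tool run for it.

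The genes whose class pattern was most like each clock gene were taken as the 2 with the highest Pearson r of log2(mean CPM + 1) over the 15 classes, among 12607 genes; classes share libraries and their depth, so r is a description. Per1 was nearest to Tti1 (0.912) and Ppp2r5a (0.898), and Per3 to Fat1 (0.886) and Tef (0.879), itself a D-box activator of the clock. Cry2 was nearest to Klf9 (0.844) and Stox2 (0.842), Cry1 to ENSRNOG00000070220 (0.878) and Add3 (0.876), and Per2 to ENSRNOG00000067125 (0.866) and ENSRNOG00000062369 (0.858). Clock was nearest to Agtpbp1 (0.898) and Ppp2r2c (0.834), and Dbp to Akt2 (0.886) and Frem2 (0.860). For Nr1d1 they were Mrps16 (0.913) and Aamdc (0.887), for Nr1d2 Slc25a5 (0.917) and Chchd10 (0.870), and for Nfil3 ENSRNOG00000067085 (0.909) and Mtf1 (0.909). Among the 10 themselves Per3 and Dbp were most alike (r = 0.825) and Clock and Nr1d1 least (r = -0.51).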

How the data were processed

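Single-nucleus RNA of the nucleus accumbens was measured in 6 libraries, grouped by the treatment in the labels. The authors deposited raw UMI counts for every gene in every barcode; per the file headers these counts come from Cell Ranger 9.0.1. Per the submitters' processing notes the build was mRatBN7.2, and Seurat 5.2.1 and R 4.4.0 were used. Whether introns and strand were counted is not given in the sources used here, which bears on Nr1d1, whose end overlaps Thra on the other strand. Per the labels 44592 nuclei were sequenced; the authors' choice of nuclei is not analysed here.

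A nucleus needed 500 detected genes and a mitochondrial share of 5% or less (61609 passed), doublets were called from simulated pairs (scrublet) at 0.4% per 1000 nuclei and removed, and nuclei were clustered with scanpy 1.11.5 (3000 variable genes, 40 components, 15 neighbours, Leiden resolution 1), leaving out the clock genes, the other listed genes, heat shock and mitochondrial genes, Xist and Y-linked genes. Clusters were named X-like from marker lists (at least 3 markers); 8 mixed clusters (5546 nuclei) and 11 unnamed clusters (12251 nuclei) were in no class. A difference from the study's own classes may come from these rebuilt names.

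Counts summed per library and class were tested with edgeR 4.0.16 (TMM, filterByExpr, quasi-likelihood F-test, no covariate, threshold 0.05), with DESeq2 1.42.0 as an alternative. Libraries pool rats, so p-values measure the spread between pools. In simulated counts where 200 genes had a log2 change of 1, edgeR recovered 80.5% over all nuclei (17342 genes), 72.5% in oligodendrocyte-like (11403 genes), 48.0% in microglia-like (6153 genes), 6.0% in committed precursor-like (4909 genes) and 0% in endothelial-like nuclei (3866 genes). In the same order it falsely called 15, 14, 1, 0 and 0 unchanged genes, and it falsely called 18 in astrocyte-like nuclei, where it recovered 71%. Named are all 10 members, every called member by class, called genes of the other clock list and the 2 genes most alike in class pattern; clusters, splits by sex of nucleus and uncalled changes were named after their values were seen. The members and lists were chosen with earlier results of these data known.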

Additional observations from a re-analysis of the deposited data

Results flagged for a closer look

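The naloxone change of 2 clock genes differed between classes by a test of the difference itself. For Nfil3 the log2 change in oligodendrocyte-like nuclei exceeded that in Drd1-like spiny neurons by 2.32 (adjusted p = 0.00116, edgeR), and by 2.00 to 2.56 with any 1 library left out. For Per2 the log2 change in Drd2-like spiny neurons exceeded that in Drd1-like spiny neurons by 0.53 (adjusted p = 0.0261, edgeR), and by 0.36 to 0.64 with any 1 library left out, where 4 of the 6 fits no longer called it (adjusted p = 0.0778 to 0.274).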

How the results depend on the processing

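Nfil3 in oligodendrocyte-like nuclei stayed called under all 15 alternatives, with log2 changes from 1.30 (without cluster 17) to 2.20. That count includes sums by sex with sex as covariate (log2 change 2.09, adjusted p = 0.0194, edgeR). This fit took male and female sums of a library as separate samples. They are no separate replicates, so its call adds no support beyond the direction of the change. The log2 changes of Per1, Cry1, Cry2, Clock, Dbp, Nr1d1, Nr1d2 and Nfil3 over all nuclei kept their direction under all 13 alternatives. Among these, marker gating leaves a sum over all nuclei unchanged, so it repeated the main fit and its result was fixed in advance. The log2 changes of Per2 and Per3, near 0, did not keep theirs: with 1 library left out Per2 ran from -0.02 to 0.10 (-0.01 without naloxone replicate 5, -0.021 without replicate 6) and Per3 from -0.19 to 0.05 (0.053 without naloxone replicate 4, 0.02 without replicate 6). The Per2 difference between Drd2-like and Drd1-like neurons ran from 0.36 to 0.64, not called in 4 of the 6.

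Counts moved more. Clock genes called over all nuclei were 0, and 2 with DESeq2. Pairs of clock gene and class called were 1, and 2 with DESeq2, 5 with no filter on low counts, 2 with doublets kept and 1 to 3 with 1 library left out; the added pairs were Cry1 in Drd1-like, Per2 and Per3 in microglia-like and Cry2 in oligodendrocyte-like nuclei. Clock genes called between classes were 1 to 2 with 1 library left out. Genes of any kind called over all nuclei were 7, and 396 with DESeq2, 41 with no filter, 0 with at least 1000 genes per nucleus, 14 with doublets kept, 30 in sums by sex and 0 to 228 (without naloxone replicate 5) with 1 library left out. Pairs of any gene and class were 380, and 249 adjusted over all classes together, 622 with DESeq2, 2248 with no filter, 228 in marker-gated classes and 121 to 492 with 1 library left out. The 30 genes called in sums by sex come from male and female sums of the same libraries, which are no separate replicates. The cause of the differences in these counts was not tested.

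The difference in Clock level between its first 2 classes, 3.15 CPM, was -9.24 CPM in marker-gated classes and -1.62 to 6.37 CPM with 1 library left out. No paired analysis was possible because the groups share no replicate numbers. The small classes limit the calls: Nfil3 had 6 UMIs in endothelial-like and 13 in astrocyte-like nuclei.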

Other observations

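Other genes of the glucocorticoid list varied in the saline libraries with the sex of the nuclei. In oligodendrocyte-like nuclei of saline replicates 1 to 3, Sgk1 read 20.9, 32.7 and 35.1 CPM in female and 129.9, 94.2 and 82.4 CPM in male nuclei. Fkbp5 read 18.6, 34.2 and 25.4 CPM in female and 64.9, 50.3 and 62.8 CPM in male nuclei, so male nuclei were higher in 3 of 3 saline libraries for both genes. Klf9 read 60.4, 72.9 and 51.4 CPM against 85.5, 84.8 and 88.3 CPM. Nfil3 was higher in male nuclei in 2 of the 3. These values were chosen after they were seen and carry no test.

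Within naloxone replicates 4 and 6 Sgk1 split in the same direction as Nfil3. It read 189 CPM in female and 73.4 CPM in male nuclei of replicate 4, 101 and 307 CPM in replicate 6, and 273 and 213 CPM in replicate 5. Klf9 read 148 and 88.3 CPM, 110 and 171 CPM, and 144 and 151 CPM in the same order. In female nuclei of replicate 6, Sgk1, Klf9 and Fkbp5 (40.7 CPM) were each above all their saline female values. Nfil3 in those nuclei (7.75 CPM) was within its saline female values. Cry1 in Drd1-like spiny neurons did not show this split. It read 17.3 and 27.4 CPM in female and male nuclei of replicate 4, 28.1 and 18.5 CPM in replicate 5 and 23.8 and 27.7 CPM in replicate 6. The highest of these values, 28.1 CPM from 160 UMIs, was close to the lowest saline value, 28.3 CPM from 153 UMIs. Male and female nuclei of a library are no separate replicates, and these values carry no test.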
